A study of Mus musculus with 10 samples.

Results

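Carbon tetrachloride (CCl4) added to a Western diet was compared with its oil vehicle on the same diet, in mouse liver, at 12 and at 24 weeks. The comparison took 4 of the 10 libraries of the series, each made from the pooled livers of 4 mice. The groups were Western diet with CCl4 for 12 or 24 weeks (1 pool each) and Western diet with oil for 12 or 24 weeks (1 pool each), and both groups ate the Western diet throughout. The series also held CCl4 and oil pools on a normal diet at both durations, and 2 tumours, each from 1 mouse on Western diet with CCl4. The sources used here do not give strain, sex, age or the dose of CCl4. Each duration had 1 pool per treatment, so both durations together stood in for repeats, paired by week. Genes were described if they reached a value of 1 in 2 or more of the 10 libraries, which left 12648 of 24062 genes. Below, CCl4 pools and oil pools mean those on Western diet unless the normal diet is named.

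CCl4 is a hepatotoxin that cytochrome P450 Cyp2e1 turns into a reactive radical inside hepatocytes, mostly those around the central vein. Repeated dosing kills hepatocytes, draws macrophages into the liver and turns stellate cells into scar-forming myofibroblasts. A Western diet, rich in fat, sugar and cholesterol, loads hepatocytes with lipid, and the design adds the toxin to that load as a model of non-alcoholic steatohepatitis. Cholesterol made or taken up by the hepatocyte controls SREBP2 and LXR. SREBP2 drives synthesis and uptake when sterols are low, and LXR drives export when oxysterols are high.

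The 8 liver pools held 24082712 to 30137802 reads, and the values are normalised read counts. Defining markers of hepatocytes were high in all 4 pools. Albumin (Alb) read 84121 and 54802 in the CCl4 pools of 12 and 24 weeks, against 101591 and 85283 in the oil pools. The summed level of 26 hepatocyte identity genes was 138652 and 97938 in the CCl4 pools, against 162784 and 143338 in the oil pools, so it was lowest in the CCl4 pool of 24 weeks. Of 13 exocrine pancreas genes 10 were at 0 in all 4 pools, as were 4 of 9 skeletal muscle genes and 4 of 8 red blood cell genes, and the fat cell hormone gene Lep was at 0 too. The red blood cell gene Alas2 was not at 0, with 159 and 108 in the CCl4 pools and 197 and 169 in the oil pools. Nor was the pancreas gene Cela1, with 7.99 and 13.4 in the CCl4 pools and 7.61 and 11 in the oil pools. Cyp2e1 itself read 5042 and 4067 in the CCl4 pools and 5158 and 5680 in the oil pools, a log2 change of -0.26 ± 0.24 (adjusted p = 0.547). In such tissue libraries, fewer cells of a type and less RNA per cell cannot be told apart.

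CCl4 on Western diet changed 862 genes at an adjusted p under 0.05 (limma), of which 543, or 4.29% of the tested genes, were higher and 319, or 2.52%, were lower. Among them 289 were higher and 95 lower by at least 2-fold. Counts in the gene lists below are to be read beside the shares of 4.29% higher and 2.52% lower. Every one of the 862 had both CCl4 pools on the same side of both oil pools. Of all tested genes, 26.1% had both CCl4 pools above both oil pools and 28.4% had both below, so separation of 2 pools from 2 is common in these data. Each p-value weighs a change against the spread between pools of different duration left after the shift common to all groups is removed. That spread is estimated over all liver pools, those on normal diet included, and is not a spread between mice. Without the oil pool of 24 weeks 29 genes passed, without the oil pool of 12 weeks 117, without the CCl4 pool of 24 weeks 312 and without that of 12 weeks 857. Leaving out a normal-diet pool alters the error of a change on Western diet but not its size. With a Western-diet pool left out, the change rests mainly on the other duration, and all 862 had the same sign at both durations. The sign, the same in all 8 fits with 1 liver pool left out for all 862 genes, was thus largely fixed in advance. Of the 862 genes, 27 passed in every one of those fits.

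Those 27 genes were 12 higher and 15 lower. The 15 lower were 9 genes of sterol synthesis and acetate use, namely Idi1, Cyp51, Sqle, Msmo1, Nsdhl, Hmgcs1, Fdps, Pmvk and the acetyl-CoA synthetase Acss2, together with Cyp2c29, Cyp2c55, the fatty acid elongase Elovl3, the retinol dehydrogenase Rdh11, the prostaglandin transporter Slco2a1 and the prolactin receptor Prlr. The 12 higher were Ly6d, Lcn2, Apoa4, Cd36, Fabp2, Abcg5, Cyp17a1, Cbr3, Scara5, Tmem86a, the oxysterol-binding protein gene Osbpl3 and the actin bundler Pls1. Acss2, which supplies acetyl-CoA for lipid synthesis, read 114 and 97.8 in the CCl4 pools and 352 and 295 in the oil pools. Osbpl3 read 29.9 and 64.7 in the CCl4 pools, against 2.91 and 5.78 in the oil pools. In both of these genes the pools of the 2 treatments lay far apart at either duration.

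**Figure D1:**
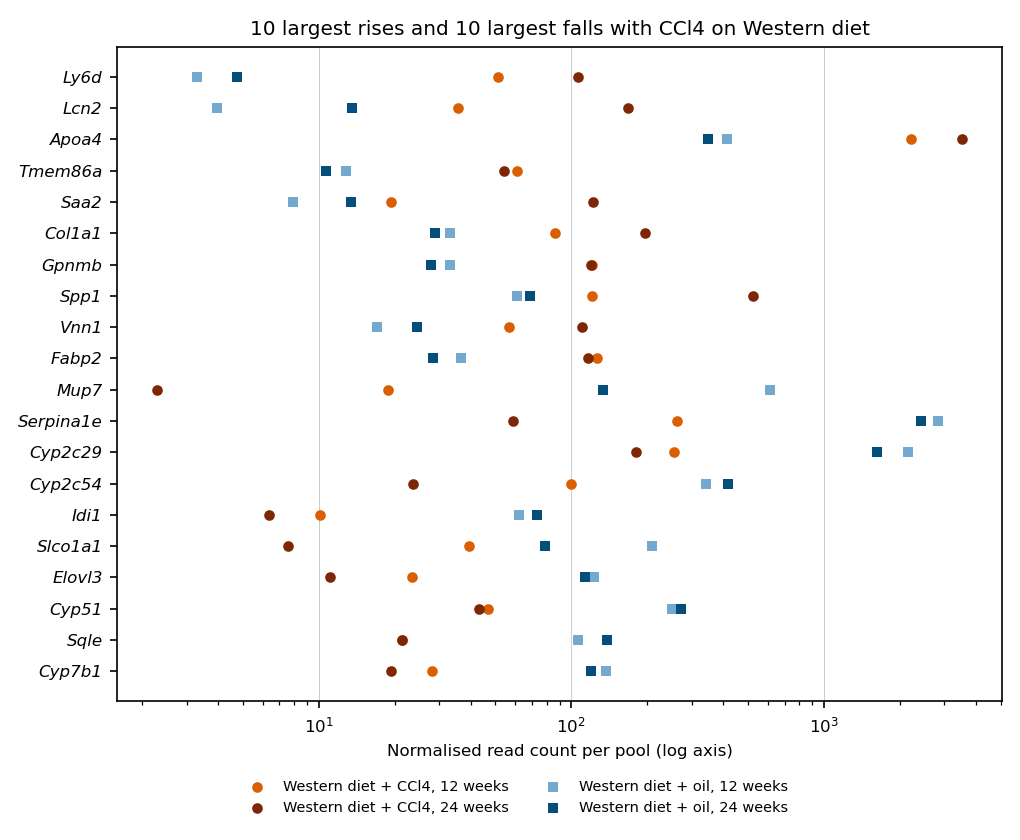
Normalised read counts (log axis) in the 4 Western-diet pools for the 10 largest rises (top) and the 10 largest falls (bottom) among called genes at or above the median level. Circles are CCl4 pools and squares oil pools, light at 12 weeks and dark at 24 weeks, and in every gene both circles lie on one side of both squares.

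Among well-expressed genes, the largest rises joined a surface protein, injury-induced secreted proteins, lipid handling genes and scar genes. Ly6d, a GPI-anchored surface protein, read 51.3 and 106 in the CCl4 pools and 3.29 and 4.75 in the oil pools, a log2 change of 3.92 ± 0.20 (adjusted p = 0.000102). The lipocalin Lcn2, which binds iron-carrying siderophores, read 35.6 and 168 in the CCl4 pools and 3.97 and 13.6 in the oil pools (3.20 ± 0.26, adjusted p = 0.000625). Both genes stood well above the oil pools already at 12 weeks and were higher again at 24 weeks. Tmem86a, a lysoplasmalogenase gene, read 60.9 and 54.2 in the CCl4 pools and 12.8 and 10.7 in the oil pools (2.20 ± 0.16, adjusted p = 0.000442). Saa2, an acute phase protein, read 19.4 and 122 in the CCl4 pools, against 7.90 and 13.4 in the oil pools (2.15 ± 0.54, adjusted p = 0.0492). On normal diet it read 64.5 and 95.4 with CCl4 and 16.6 and 144 with oil, so a level as high also occurred without CCl4. Of the 4 Western-diet pools, Saa2 was much higher in that of CCl4 at 24 weeks than in the others, and it passed in 5 of the 8 fits that left a pool out but not in edgeR (adjusted p = 0.0511) or DESeq2 (adjusted p = 0.0702).

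The largest falls were in urinary protein, P450 and sterol genes. Mup7, a major urinary protein, read 18.8 and 2.30 in the CCl4 pools and 609 and 134 in the oil pools (-5.15 ± 1.22, adjusted p = 0.0432). It passed in 4 of the 8 fits that left a pool out and missed the threshold in edgeR (adjusted p = 0.0533). Serpina1e, an antitrypsin, read 262 and 58.9 in the CCl4 pools and 2821 and 2427 in the oil pools (-4.38 ± 0.54, adjusted p = 0.00508). Both belong to families of near-identical copies, so which member changed is uncertain. Elovl3 read 23.5 and 11.1 in the CCl4 pools and 123 and 113 in the oil pools (-2.78 ± 0.24, adjusted p = 0.000943).

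Transcript levels of cholesterol synthesis genes fell along nearly the whole pathway. Of 20 enzymes tested, 19 fell and 0 rose, with a median log2 change of -1.49 against -0.02 over all tested genes. On normal diet, 19 of the 20 fell with CCl4 and 1 rose, where 10.6% of all tested genes fell and 15.3% rose. All 20 had both CCl4 pools below both oil pools, and their summed level was 2375 and 2349 in the CCl4 pools, against 4624 and 4999 in the oil pools. The count lower was 15 without the oil pool of 12 weeks, 8 without the oil pool of 24 weeks, 19 without the CCl4 pool of 12 weeks and 18 without that of 24 weeks.

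In the mevalonate steps, Hmgcs1, which makes HMG-CoA, read 140 and 150 in the CCl4 pools and 419 and 628 in the oil pools (-1.81 ± 0.16, adjusted p = 0.000943). Mvk, mevalonate kinase, read 10.6 and 11.1 in the CCl4 pools and 28.1 and 37.1 in the oil pools. Mvd, the decarboxylase, read 7.72 and 8.96 in the CCl4 pools, against 28.3 and 34.6 in the oil pools. Both fell, as did Pmvk, which lies between them in the pathway.

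Idi1, the isopentenyl diphosphate isomerase, had the largest fall of the list. It read 10.1 and 6.38 in the CCl4 pools and 62.2 and 73.2 in the oil pools (-2.92 ± 0.21, adjusted p = 0.000442). Squalene epoxidase (Sqle), the first oxygen-dependent step, read 21.4 and 21.3 in the CCl4 pools and 106 and 139 in the oil pools (-2.45 ± 0.15, adjusted p = 0.000222). After lanosterol, the demethylase Cyp51 read 46.8 and 43.3 in the CCl4 pools and 250 and 272 in the oil pools (-2.51 ± 0.13, adjusted p = 0.000102). The CCl4 pools of the 2 durations were close to each other in Sqle and Cyp51. The methyl sterol oxidase Msmo1 read 43.7 and 44.4 in the CCl4 pools, against 183 and 272 in the oil pools (-2.32 ± 0.20, adjusted p = 0.000854). Smaller changes were not confined to 1 part of the pathway. Acat2, at its start, was at -0.82 ± 0.11 and Hsd17b7 at -1.19 ± 0.15. Near its end Sc5d was at -0.88 ± 0.15 and Dhcr7 at -1.20 ± 0.15.

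**Figure D2:**
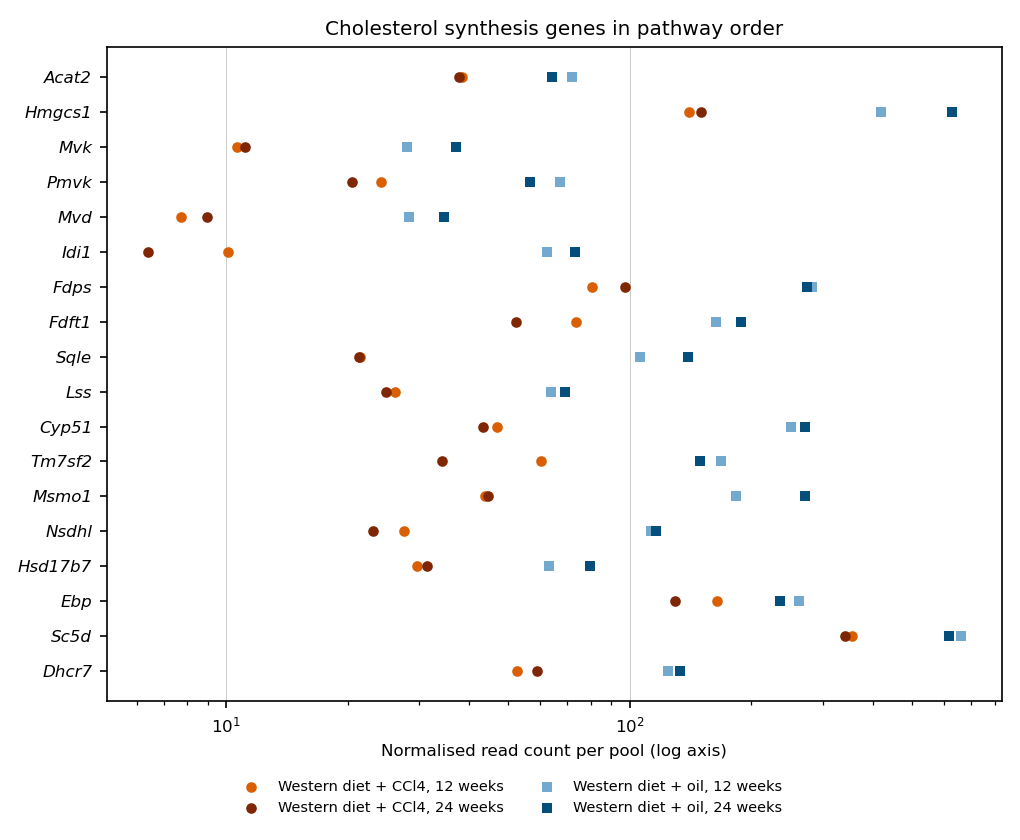
Normalised read counts (log axis) of 18 cholesterol synthesis genes in pathway order from Acat2 at the top, in the 4 Western-diet pools. Circles are CCl4 pools and squares oil pools, light at 12 weeks and dark at 24 weeks; both circles lie left of both squares in all 18 genes.

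SREBP2 binds sterol regulatory elements, and its targets usually need NF-Y at a neighbouring CCAAT box. The promoters of 4 members are shown because they carry those letters in genes that fell. They are the 3 largest falls whose window holds CCAAT, and Hmgcs1, which also holds CACCCCAC. Each window runs from 250 bases before to 50 after the start site (RefSeq, GRCm38.p6), 5′ to 3′ on the gene's strand, and capitals mark CCAAT or its reverse complement ATTGG, and CACCCCAC.
Idi1 (chr13:8885356-8885655, + strand): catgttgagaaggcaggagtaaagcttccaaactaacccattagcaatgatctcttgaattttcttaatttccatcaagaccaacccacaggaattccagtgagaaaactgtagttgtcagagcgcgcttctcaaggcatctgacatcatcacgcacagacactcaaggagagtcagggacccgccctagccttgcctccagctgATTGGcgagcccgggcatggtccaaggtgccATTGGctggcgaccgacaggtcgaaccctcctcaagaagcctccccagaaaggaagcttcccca
Cyp51 (chr5:4104648-4104947, - strand): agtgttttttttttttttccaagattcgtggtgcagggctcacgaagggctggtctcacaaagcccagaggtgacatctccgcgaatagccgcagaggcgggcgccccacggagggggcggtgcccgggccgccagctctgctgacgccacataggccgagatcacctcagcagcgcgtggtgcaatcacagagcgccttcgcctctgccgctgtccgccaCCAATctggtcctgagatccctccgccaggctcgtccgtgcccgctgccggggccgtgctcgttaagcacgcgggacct
Msmo1 (chr8:64733529-64733828, - strand): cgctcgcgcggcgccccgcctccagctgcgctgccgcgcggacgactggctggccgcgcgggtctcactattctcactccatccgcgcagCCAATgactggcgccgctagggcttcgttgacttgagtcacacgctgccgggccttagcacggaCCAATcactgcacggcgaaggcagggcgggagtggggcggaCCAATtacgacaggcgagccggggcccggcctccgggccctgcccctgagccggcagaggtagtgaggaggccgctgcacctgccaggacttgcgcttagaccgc
Hmgcs1 (chr13:119690101-119690400, + strand): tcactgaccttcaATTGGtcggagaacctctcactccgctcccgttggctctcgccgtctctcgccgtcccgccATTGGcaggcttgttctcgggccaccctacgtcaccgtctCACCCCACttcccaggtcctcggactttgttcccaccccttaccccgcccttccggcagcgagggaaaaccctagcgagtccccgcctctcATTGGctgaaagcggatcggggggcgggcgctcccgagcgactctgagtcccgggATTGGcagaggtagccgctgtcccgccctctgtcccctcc

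Of the 20 enzymes, 15 had a promoter window in the RefSeq table, 18 windows in all. CCAAT on either strand was in 14 of the 18 windows, or 77.8%, and in 37.4% of the 12263 windows of 9574 tested genes. The letters CACCCCAC were in 2 windows, or 11.1%, those of Hmgcs1 and Acat2, and in 3.2% of all windows. These matches are a description of the letters, and no binding was measured. In the list of lipid droplet genes, the nuclear receptor half-site AGGTCA was in 4 of 20 windows, or 20%, and in 13.3% of all windows. The D-box letters TTATGNAA, where N is any base, were in 2 of 22 windows of clock genes, or 9.09%, and in 2.2% of all windows. Both strands were searched for each motif.

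Of 12 regulators of sterol uptake and sensing tested, 5 fell and 0 rose, with a median of -0.30. Insig1, which holds SREBP in the endoplasmic reticulum when sterols are high and is itself an SREBP2 target, read 214 and 191 in the CCl4 pools and 370 and 383 in the oil pools (-0.89 ± 0.14). Scap, which encodes the escort protein of SREBP, read 88.9 and 86.4 in the CCl4 pools, against 165 and 141 in the oil pools (-0.79 ± 0.13). Srebf2, which encodes SREBP2, fell by 0.56 ± 0.12 (adjusted p = 0.0334) and the sterol carrier Stard4 by 0.94 ± 0.18. The 5 calls rest on both oil pools, since 0 remained without the one of 12 weeks and 0 without the one of 24 weeks.

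LXR targets and sterol efflux genes moved the other way, and 6 of 13 rose and 0 fell, with a median of 0.79. Abcg5 and Abcg8 form the transporter that pumps sterols into bile. Abcg5 read 172 and 142 in the CCl4 pools and 60.2 and 66.1 in the oil pools (1.29 ± 0.13, adjusted p = 0.00177), and Abcg8 read 171 and 150 in the CCl4 pools, against 81.7 and 81.9 in the oil pools. Abcg1, a macrophage sterol exporter, read 26.4 and 27.3 in the CCl4 pools, against 9.78 and 9.53 in the oil pools (1.39 ± 0.20). In each of these 3 transporters both CCl4 pools were above both oil pools. The exporter Abca1, another LXR target, did not pass, with 212 and 190 in the CCl4 pools and 199 and 191 in the oil pools. The other calls were Srebf1, Lpl and the phospholipid transfer protein Pltp. The count was 2 without the oil pool of 12 weeks, 1 without that of 24 weeks, which was Abcg5, and 3 without the CCl4 pool of 24 weeks.

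Of 19 fatty acid synthesis genes tested, 5 rose and 0 fell, with a median of 0.22. The 5 were Scd2, Pnpla3, Fads2, Elovl5 and Srebf1. Pnpla3, a lipase gene induced by SREBP1, read 2.11 and 2.76 in the CCl4 pools and 0.684 and 0.148 in the oil pools (1.30 ± 0.25, adjusted p = 0.0224). The desaturase Scd2 read 47.9 and 88.8 in the CCl4 pools and 20.1 and 20.9 in the oil pools (1.63 ± 0.20). Fads2, the delta-6 desaturase, read 753 and 913 in the CCl4 pools, against 385 and 333 in the oil pools (1.21 ± 0.17), and the elongase Elovl5 rose by 1.04 ± 0.16. Srebf1, which encodes SREBP1, read 563 and 482 in the CCl4 pools, against 328 and 276 in the oil pools (0.79 ± 0.14). The fatty acid synthase Fasn did not pass, with 675 and 998 in the CCl4 pools and 661 and 591 in the oil pools. Neither did Acly, which supplies its acetyl-CoA from citrate, with 357 and 287 in the CCl4 pools and 446 and 375 in the oil pools. Here the count was 1 without the oil pool of 12 weeks, 0 without that of 24 weeks and 3 without the CCl4 pool of 24 weeks.

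Lipid droplet genes rose in part, 6 of 16 with 0 lower and a median of 0.60. Cidec, which fuses droplets into larger ones, read 13.1 and 95.3 in the CCl4 pools and 2.52 and 1.85 in the oil pools (3.54 ± 0.56, adjusted p = 0.0113). Plin4, a perilipin typical of fat cells, read 6.49 and 31.5 in the CCl4 pools, against 2.52 and 4.37 in the oil pools (1.84 ± 0.34). Plin5, which tethers droplets to mitochondria, read 88.1 and 71.2 in the CCl4 pools and 33.9 and 39.1 in the oil pools (1.10 ± 0.24). Cidec and Plin4 were far higher in the CCl4 pool of 24 weeks than in that of 12 weeks, and Plin5 was not. Plin2, the main perilipin of hepatocyte droplets, did not pass, with 449 and 696 in the CCl4 pools and 463 and 493 in the oil pools. The count was 1 without the oil pool of 12 weeks, 0 without that of 24 weeks and 3 without the CCl4 pool of 24 weeks. Of 5 tested adipocyte genes 1 rose, Fabp4, which macrophages also express, and the fat cell genes Adipoq and Lep were at or near 0 in all 4 pools.

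Among genes of fatty acid uptake and binding 5 of 17 rose and 1 fell. Cd36, the fatty acid translocase, read 205 and 291 in the CCl4 pools and 71.6 and 84.9 in the oil pools (1.63 ± 0.11, adjusted p = 0.000358). Fabp2, the intestinal fatty acid binding protein, read 126 and 116 in the CCl4 pools, against 36.5 and 28.3 in the oil pools (1.88 ± 0.16, adjusted p = 0.000696). The liver form Fabp1 did not pass, with 2926 and 2395 in the CCl4 pools and 2812 and 2348 in the oil pools. The 1 that fell was Slc27a5, a bile acid and fatty acid CoA ligase, with 1203 and 687 in the CCl4 pools and 1800 and 1531 in the oil pools. Leaving out the oil pool of 12 weeks, 3 rose, without that of 24 weeks 2, Cd36 and Fabp2, and without the CCl4 pool of 24 weeks 3, and in each of these fits 0 fell.

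Apolipoproteins changed singly. Of 15 genes, 3 rose and 1 fell. Apoa4, which is packaged on triglyceride-rich particles, read 2221 and 3512 in the CCl4 pools and 414 and 349 in the oil pools (2.87 ± 0.22, adjusted p = 0.000477). Apoc2, the cofactor of lipoprotein lipase, read 536 and 525 in the CCl4 pools, against 220 and 208 in the oil pools (1.31 ± 0.13, adjusted p = 0.00177). Apom, a carrier of sphingosine phosphate, fell by 0.95 ± 0.23 (adjusted p = 0.0467, and 0.059 in edgeR), and the structural proteins Apob and Apoa1 did not pass. The count higher was 1 without the oil pool of 24 weeks, Apoa4. Of 22 PPAR-alpha targets and oxidation genes, 3 rose and 1 fell. On normal diet 11 rose and 0 fell, where 15.3% of all tested genes rose and 10.6% fell. By the test of the difference, 0 differed between the diets. Vnn1, a pantetheinase and a strong PPAR-alpha target, read 56.5 and 110 in the CCl4 pools and 17.0 and 24.6 in the oil pools (1.89 ± 0.25), and the mitochondrial carrier Ucp2 rose by 1.22 ± 0.15. Cpt1a, the gate of mitochondrial oxidation, rose by 0.63 ± 0.14, while Pdk4, which spares glucose by inhibiting pyruvate dehydrogenase, read 12.9 and 18.7 in the CCl4 pools and 24.1 and 36.4 in the oil pools (-0.89 ± 0.19). The PPAR-alpha count fell to 1 without the oil pool of 12 weeks, 0 without that of 24 weeks and 2 without the CCl4 pool of 24 weeks.

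Of 25 glucose-handling genes 6 rose and 1 fell. Pfkfb1, the liver's bifunctional enzyme of fructose bisphosphate, read 30.5 and 33.2 in the CCl4 pools, against 12.0 and 17.2 in the oil pools (1.09 ± 0.17). Hk3 and Pfkp, isoforms of blood and other non-parenchymal cells, rose by 1.26 ± 0.25 and 1.16 ± 0.19. The 1 that fell was glucose-6-phosphatase (G6pc), the last step of glucose release, with 419 and 287 in the CCl4 pools and 707 and 775 in the oil pools (-1.09 ± 0.17, adjusted p = 0.0108). Pck1 did not pass, with 3797 and 2916 in the CCl4 pools and 3747 and 3029 in the oil pools. In this list the counts higher and lower were 1 and 0 without the oil pool of 12 weeks, 0 and 0 without that of 24 weeks, and 4 and 1 without the CCl4 pool of 24 weeks.

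Drug-metabolising P450s fell widely. Of 33 tested in families 1 to 3, 16 fell and 1 rose, with a median of -0.70. Beside them the summed level of hepatocyte identity genes, given above, was lower in both CCl4 pools, and its part in the result was not tested. Cyp2c29 read 254 and 180 in the CCl4 pools and 2143 and 1628 in the oil pools (-3.12 ± 0.20, adjusted p = 0.000239). Cyp1a2, which oxidises caffeine, read 262 and 121 in the CCl4 pools and 792 and 803 in the oil pools (-2.16 ± 0.25, adjusted p = 0.00450). Cyp3a11, a major drug-oxidising form, read 4065 and 3215 in the CCl4 pools, against 11306 and 8591 in the oil pools (-1.45 in log2). In all 3 enzymes both CCl4 pools were under the lower oil pool by a wide margin. The count lower was 6 without the oil pool of 12 weeks, 2 without that of 24 weeks, namely Cyp2c29 and Cyp2c55, and 7 without the CCl4 pool of 24 weeks.

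Apart from Cyp2c44, which fell too, 12 Cyp2c genes were tested, and they lie together on chromosome 19 from Cyp2c55, which starts at 39006940, to Cyp2c70, which ends at 40187286 (GRCm38.p6). Of the 12, 6 fell, 0 rose and 6 did not pass. Cyp2c54 read 100 and 23.6 in the CCl4 pools and 340 and 417 in the oil pools (-2.92 ± 0.53), and Cyp2c50 read 287 and 118 in the CCl4 pools, against 851 and 931 in the oil pools (-2.27 ± 0.31). The neighbour Cyp2c67 did not pass, with 76.4 and 94.0 in the CCl4 pools and 71.4 and 78.2 in the oil pools. These genes are close paralogs, and reads may have been split between them by the authors' counting. The 1 P450 that rose was Cyp2a4, a steroid hydroxylase that female livers express more, with 24.1 and 121 in the CCl4 pools and 1.88 and 3.30 in the oil pools (3.98 ± 0.59, adjusted p = 0.01). It is nearly identical to Cyp2a5, which read 212 and 468 in the CCl4 pools and 503 and 557 in the oil pools, so the split of reads between these 2 genes is uncertain.

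Conjugating enzymes fell in part, 8 of 22 glucuronosyl and sulfo transferases with 0 higher and a median of -0.64. Sult5a1 read 2.65 and 1.12 in the CCl4 pools and 13.1 and 10.1 in the oil pools (-2.17 ± 0.26). Ugt1a9 read 18.2 and 32.7 in the CCl4 pools, against 59.7 and 96.8 in the oil pools (-1.60 ± 0.25), and shares exons with the other Ugt1a genes. Only Sult5a1 passed without the oil pool of 12 weeks, none passed without that of 24 weeks, and 4 passed without the CCl4 pool of 24 weeks. Among glutathione transferases and NRF2 targets, 2 of 28 rose and 5 fell, where 4.29% of all tested genes rose and 2.52% fell. Cbr3, a carbonyl reductase, read 9.26 and 11.7 in the CCl4 pools and 1.11 and 1.56 in the oil pools (2.29 ± 0.21, adjusted p = 0.00125). Gstp1, which male livers express more, read 362 and 206 in the CCl4 pools, against 730 and 423 in the oil pools (-1.02 ± 0.22), and Osgin1 fell by 1.14 ± 0.25. The classical NRF2 target Nqo1 did not pass, with 12.1 and 16.7 in the CCl4 pools and 9.53 and 13.3 in the oil pools. Without the oil pool of 12 weeks 1 rose and 0 fell, and without that of 24 weeks also 1 and 0, Cbr3 in both.

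Bile acid genes fell in 8 of 23, with 0 higher and a median of -0.50. Cyp7b1, the oxysterol hydroxylase of the alternative pathway, read 28.2 and 19.3 in the CCl4 pools and 137 and 120 in the oil pools (-2.41 ± 0.31, adjusted p = 0.00551). Cyp27a1, which opens that pathway, read 304 and 275 in the CCl4 pools, against 583 and 499 in the oil pools (-0.90 ± 0.12). Cyp7a1, the rate-limiting enzyme of the classical pathway, did not pass, with 93.1 and 86.6 in the CCl4 pools and 114 and 142 in the oil pools (-0.50 ± 0.46, adjusted p = 0.552). The bile salt export pump Abcb11 read 614 and 449 in the CCl4 pools and 1104 and 903 in the oil pools (-0.93 ± 0.13, adjusted p = 0.00709). The uptake transporter Slco1a1, higher in male livers, read 39.3 and 7.53 in the CCl4 pools and 209 and 78.4 in the oil pools (-2.80 ± 0.61). Without the oil pool of 12 weeks 1 fell, without that of 24 weeks 0, and without the CCl4 pool of 24 weeks 3.

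Zonation genes of both ends of the lobule were lower in a minority of members. Of 22 pericentral genes 4 fell and 0 rose, with a median of -0.53, and 16 had both CCl4 pools below both oil pools. They were Cyp1a2, Cyp27a1, the transcription factor Tbx3 and Gulo. Tbx3, a beta-catenin target, read 10.6 and 14.1 in the CCl4 pools and 23.8 and 25.5 in the oil pools (-0.95 ± 0.23, adjusted p = 0.0463). Glutamine synthetase (Glul), found in the last cells before the central vein, did not pass, with 238 and 369 in the CCl4 pools and 387 and 474 in the oil pools. Of 19 periportal genes 6 fell and 0 rose, with a median of -0.37, among them Hal, which opens histidine breakdown, at -1.15 ± 0.25 and Etnppl at -1.30 ± 0.30. Etnppl missed the threshold in edgeR (adjusted p = 0.0536) and DESeq2 (adjusted p = 0.0886), and in edgeR so did the pericentral Tbx3 (adjusted p = 0.0503) and Gulo (adjusted p = 0.0577). The pericentral counts lower were 1, 0 and 6 and the periportal ones 1, 0 and 2 without the oil pool of 12 weeks, the oil pool of 24 weeks and the CCl4 pool of 24 weeks in that order.

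Among 26 genes of general hepatocyte identity the median change was -0.27, and 22 changes were negative, against 6661 of all 12648 tested. Both CCl4 pools lay below both oil pools in 12 of the 26, against 28.4% of all tested genes. Most did not pass, with 1 lower, where 2.52% of all tested genes fell. That 1 was the xenobiotic receptor Nr1i3, which read 28.0 and 24.6 in the CCl4 pools and 43.8 and 51.6 in the oil pools (-0.83 ± 0.15), and 0 passed without any of the oil pools or without the CCl4 pool of 24 weeks. The master factor Hnf4a read 733 and 515 in the CCl4 pools and 835 and 685 in the oil pools. Of 25 amino acid and one-carbon genes 3 fell, all of the sulfur and glyoxylate routes. Cbs, which commits homocysteine to cysteine, read 333 and 345 in the CCl4 pools, against 633 and 555 in the oil pools (-0.80 ± 0.12), and Cth, the next step, fell by 1.24 ± 0.29. The call of Cth was lost in edgeR (adjusted p = 0.0542) and DESeq2 (adjusted p = 0.0881), and it passed in 3 of the 8 fits that left a pool out. Agxt, which detoxifies glyoxylate, fell by 0.92 ± 0.17. Among 34 complement and coagulation genes 5 fell and 1 rose, and 25 had both CCl4 pools lower. The fall was largest in C8b, a subunit of the membrane attack complex, with 164 and 72.4 in the CCl4 pools and 329 and 290 in the oil pools (-1.50 ± 0.33). The 1 that rose was C1qa, which macrophages make. Without either oil pool 0 of the complement and coagulation and 0 of the amino acid genes passed.

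Male-biased liver genes fell in 11 of 26, with 1 higher. On normal diet 24 fell and 0 rose, where 10.6% of all tested genes fell and 15.3% rose. The median on Western diet was -1.52, close to that of cholesterol synthesis, and 21 had both CCl4 pools below both oil pools. The 1 that rose was Serpina12, the adipokine vaspin, with 39.1 and 54.6 in the CCl4 pools and 20.0 and 26.7 in the oil pools. Mup1 and Hsd3b5 did not pass in spite of large differences, and Hsd3b5 read 2.92 and 0.230 in the CCl4 pools, against 30.8 and 8.16 in the oil pools. Mup20 stood apart from the other urinary protein genes, with 1797 and 1995 in the CCl4 pools and 1822 and 2065 in the oil pools. Of 9 tested female-biased genes 2 rose, Cyp2a4 and Cyp17a1. Cyp17a1, a steroid 17-alpha-hydroxylase, read 14.2 and 44.6 in the CCl4 pools and 2.91 and 6.04 in the oil pools (2.33 ± 0.20, adjusted p = 0.000854). Leaving out the oil pools of 12 and 24 weeks, 3 and 1 male-biased genes fell, and without the CCl4 pool of 24 weeks 5.

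Growth hormone pulses maintain male-biased expression through STAT5b and its antagonist BCL6. Of 18 genes of the axis 1 rose and 3 fell, where 4.29% of all tested genes rose and 2.52% fell. Bcl6, the repressor that male livers express more, read 17.6 and 22.8 in the CCl4 pools and 70.4 and 61.3 in the oil pools (-1.66 ± 0.21, adjusted p = 0.00508). Igfals, which stabilises circulating IGF1, fell by 0.92 ± 0.20, and Igfbp2 by 0.71 ± 0.14. The leptin receptor Lepr read 21.7 and 11.1 in the CCl4 pools, against 3.08 and 3.26 in the oil pools (1.99 ± 0.38). The hormone's own receptor Ghr did not pass, with 553 and 350 in the CCl4 pools and 668 and 572 in the oil pools, nor did Igf1. The counts higher and lower were 0 and 0 without the oil pool of 12 weeks, 0 and 1 without that of 24 weeks, and 2 and 1 without the CCl4 pool of 24 weeks.

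Clock genes showed a partial pattern, with 4 of 21 lower and 0 higher. Arntl, which encodes the core activator BMAL1, read 8.87 and 7.93 in the CCl4 pools and 17.3 and 23.6 in the oil pools (-1.18 ± 0.17, adjusted p = 0.00991). Npas2, its alternative partner, fell by 1.23 ± 0.30, the repressor Cry1 by 0.98 ± 0.22 and Nfil3, which represses D-box genes, by 0.86 ± 0.21. The output factor Dbp did not pass, with 62.4 and 50.1 in the CCl4 pools and 55.9 and 38.4 in the oil pools. The sources used here do not give the hour of tissue collection, and it cannot be told apart from the treatment. Arntl was the only 1 to pass without the oil pool of 12 weeks or without the CCl4 pool of 24 weeks, and 0 passed without the oil pool of 24 weeks.

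Scar genes rose, 16 of 35 extracellular matrix genes with 0 lower and a median of 0.94. On normal diet 32 of the 35 rose, where 15.3% of all tested genes did. Both CCl4 pools lay above both oil pools in 32 of the 35. Col1a1, the main fibrillar collagen, read 86.0 and 196 in the CCl4 pools and 33.2 and 28.8 in the oil pools (2.04 ± 0.27, adjusted p = 0.00572). Col3a1, which accompanies it in young scar, read 238 and 372 in the CCl4 pools, against 99.2 and 85.9 in the oil pools (1.68 ± 0.19, adjusted p = 0.00398). Col5a2, which nucleates fibrils, rose by 1.67 ± 0.21 and the matricellular Thbs2 by 1.61 ± 0.26. Fn1, which hepatocytes make in bulk, was the 1 gene with both CCl4 pools lower, with 1074 and 1084 against 1332 and 1344 in the oil pools, and it did not pass. The cross-linker Lox did not pass, with 2.07 and 5.40 in the CCl4 pools and 1.71 and 1.85 in the oil pools, while Loxl2 rose by 0.88. The median change of the list was 0.49 at 12 weeks and 1.44 at 24 weeks. The count was 5 without the oil pool of 12 weeks, 0 without that of 24 weeks, 24 without the CCl4 pool of 12 weeks and 5 without that of 24 weeks.

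Matrix proteases and their inhibitors rose in 7 of 19, with 0 lower. Mmp12, the macrophage elastase, read 24.9 and 52.3 in the CCl4 pools and 5.98 and 6.75 in the oil pools (2.34 ± 0.31, adjusted p = 0.00611). Adam8, a leukocyte protease, read 6.76 and 12.6 in the CCl4 pools, against 0.940 and 2.22 in the oil pools (2.04 ± 0.31). Mmp7, an epithelial matrilysin, read 1.65 and 18.6 in the CCl4 pools and 0.0855 and 1.15 in the oil pools (2.24 ± 0.54), the first oil value standing under that of 3 reads. Among the Western-diet pools, Mmp7 was thus high in 1, that of CCl4 at 24 weeks. On normal diet it read 1.31 and 10.1 with CCl4 and 0.0444 and 0.183 with oil. The inhibitor Timp1 did not pass, with 0.922 and 4.05 in the CCl4 pools and 0.726 and 0.371 in the oil pools (1.02 ± 0.36, adjusted p = 0.123). The count was 1 without the oil pool of 12 weeks, 0 without that of 24 weeks and 2 without the CCl4 pool of 24 weeks.

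Stellate cell markers rose in 3 of 17, with 0 lower and a median of 0.62, and 11 had both CCl4 pools above both oil pools. Vim, the filament of mesenchymal cells, read 65.3 and 93.6 in the CCl4 pools and 30.2 and 34.0 in the oil pools (1.26 ± 0.15, adjusted p = 0.00506). Lrat, which stores retinol in quiescent stellate cells, read 39.5 and 44.0 in the CCl4 pools, against 26.1 and 23.7 in the oil pools (0.72 ± 0.17, adjusted p = 0.0432). Rgs5 rose by 0.82 ± 0.17. Smooth muscle actin (Acta2), the usual marker of myofibroblasts, did not pass, with 3.34 and 5.89 in the CCl4 pools and 2.95 and 1.52 in the oil pools (0.79 ± 0.28, adjusted p = 0.130). Pdgfrb did not pass either, with 19.5 and 38.4 in the CCl4 pools and 13.4 and 16.2 in the oil pools. The summed level of the 20 listed markers was 302 and 448 in the CCl4 pools, against 211 and 234 in the oil pools, and its part in the matrix result was not tested. In TGF-beta signalling 3 of 22 rose, Ctgf and Skil among them, and the ligand Tgfb1 did not pass, with 15.1 and 18.4 in the CCl4 pools and 11.1 and 10.2 in the oil pools. Of 20 YAP and TAZ targets 3 rose, Myof, Ctgf and the receptor Axl, while Cyr61 read 6.91 and 11.3 in the CCl4 pools and 15.5 and 18.0 in the oil pools without passing. Axl read 70.4 and 77.3 in the CCl4 pools and 30.3 and 34.1 in the oil pools (1.17 ± 0.13, adjusted p = 0.00398). Without the oil pools of 12 and 24 weeks the stellate counts were 1 and 0, the TGF-beta counts 0 and 0 and the YAP and TAZ counts 1 and 0, and without the CCl4 pool of 24 weeks they were 2, 0 and 1.

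Markers of recruited and lipid-laden macrophages rose in 17 of 23, with 0 lower and a median of 1.34. All 23 had a positive change. On normal diet 20 rose and 1 fell, where 15.3% of all tested genes rose and 10.6% fell. Gpnmb, a lysosomal glycoprotein of lipid-filled macrophages, read 121 and 120 in the CCl4 pools and 33.2 and 27.8 in the oil pools (1.96 ± 0.37, adjusted p = 0.0212). Trem2, the lipid receptor of these cells, read 15.7 and 22.1 in the CCl4 pools, against 5.98 and 4.89 in the oil pools. Ccr2, which brings monocytes into tissue, read 8.10 and 13.6 in the CCl4 pools, against 2.39 and 2.37 in the oil pools (1.77 ± 0.29, adjusted p = 0.0132). Each of these 3 was already raised at 12 weeks. Lgals3, galectin-3, read 41.2 and 59.2 in the CCl4 pools and 11.9 and 14.5 in the oil pools (1.83 ± 0.23). Spp1, osteopontin, which both these macrophages and bile duct cells make, read 121 and 524 in the CCl4 pools and 60.8 and 68.9 in the oil pools (1.94 ± 0.47, adjusted p = 0.0455). The count was 7 without the oil pool of 12 weeks, 0 without that of 24 weeks, 11 without the CCl4 pool of 12 weeks and 9 without that of 24 weeks.

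Resident macrophages, the Kupffer cells, gave a mixed picture. Of 18 markers 4 rose, and 3 of them were the complement genes C1qa, C1qb and C1qc, which recruited macrophages also make. The fourth was Emr1, which encodes F4/80, with 56.3 and 49.5 in the CCl4 pools and 26.4 and 33.7 in the oil pools (0.80 ± 0.20, adjusted p = 0.0477). The median change of the list was 0.81 at 12 weeks and -0.01 at 24 weeks. Some receptors typical of resident cells, named after their values were seen, were low in the CCl4 pool of 24 weeks only. Marco read 37.4 and 1.61 in the CCl4 pools and 22.7 and 32.4 in the oil pools, and Timd4 read 7.30 and 0.862 in the CCl4 pools, against 4.57 and 4.78 in the oil pools. Clec4f was not low there, with 159 and 88.3 in the CCl4 pools and 88.4 and 91.0 in the oil pools. None of these 3 passed. Without the CCl4 pool of 24 weeks 8 Kupffer cell genes rose, and without either oil pool 0.

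Class II antigen presentation genes rose, and class I genes did not pass. Of 18 antigen presentation genes 7 rose and 0 fell, namely H2-Ab1, H2-Aa, H2-Eb1, Cd74, H2-DMb1, H2-DMa and the protease Ctss, all of the class II route. H2-Ab1 read 102 and 162 in the CCl4 pools and 42.6 and 57.0 in the oil pools (1.36 ± 0.18, adjusted p = 0.00551). Ctss, which trims the invariant chain, read 152 and 175 in the CCl4 pools, against 59.7 and 74.6 in the oil pools (1.28 ± 0.15). The class I genes H2-K1 and B2m did not pass, and B2m read 2175 and 1818 in the CCl4 pools and 2203 and 2320 in the oil pools. Among 28 interferon-stimulated genes 4 rose, Oas3, Oasl2, Ifi27l2a and Oas2, and Oas3 read 6.03 and 6.64 in the CCl4 pools and 1.92 and 1.89 in the oil pools (1.33 ± 0.19), while Oas2 missed the threshold in edgeR (adjusted p = 0.0567). Of 30 chemokine and cytokine genes 5 rose, among them the receptor Ccr2, the ligands Ccl6 and Cxcl16, and the antagonist Il1rn, which read 10.4 and 17.8 in the CCl4 pools and 2.39 and 4.63 in the oil pools (1.74 ± 0.22). The cytokine Il1b did not pass, with 3.03 and 3.19 in the CCl4 pools and 1.62 and 4.08 in the oil pools. Without the oil pool of 24 weeks 0 genes of these 3 lists passed, and without that of 12 weeks 1 of the first rose, 0 of the second and 0 of the third, where 1 fell.

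Of 11 T and NK cell genes and 7 B and plasma cell genes 0 passed in limma and 0 in edgeR, while DESeq2 called 1 in each list and 2 in each had an unadjusted p under 0.05. Cd3e read 0.730 and 1.01 in the CCl4 pools and 1.45 and 1.67 in the oil pools, and the B cell gene Ms4a1 read 0.768 and 0.776 in the CCl4 pools, against 0.769 and 0.853 in the oil pools. Of 5 neutrophil genes 1 rose, Lcn2, which injured epithelium also makes. The neutrophil genes S100a8 and Csf3r did not pass, and S100a8 read 1.23 and 1.41 in the CCl4 pools and 0.513 and 1.48 in the oil pools. Of 20 endothelial genes 2 rose, Vwf and Cd34, both typical of large vessels and of sinusoids that lose their fenestrae. Vwf read 7.57 and 12.2 in the CCl4 pools and 3.80 and 5.12 in the oil pools (0.97 ± 0.19). The sinusoidal receptor Stab2 did not pass, with 51.5 and 39.6 in the CCl4 pools and 44.6 and 42.7 in the oil pools. Neither endothelial gene passed without an oil pool or without the CCl4 pool of 24 weeks. Of 25 acute phase and metallothionein genes 4 rose and 0 fell, Lcn2, Saa2, Mt2 and Steap4. Mt2, which binds zinc, read 58.6 and 48.6 in the CCl4 pools and 10.7 and 30.1 in the oil pools (1.51 ± 0.33). The fibrinogen gene Fga did not pass, with 3562 and 2999 in the CCl4 pools and 5367 and 5270 in the oil pools. Only Lcn2 of these passed without the oil pool of 12 weeks, and only it without that of 24 weeks.

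Among the Western-diet pools, bile duct and progenitor genes were high chiefly in 1, CCl4 at 24 weeks. Of 17 tested 2 rose, Spp1 and Cd24a, but the median change was 0.20 at 12 weeks and 1.89 at 24 weeks. On normal diet 9 of the 17 rose with CCl4 and 0 fell, where 15.3% of all tested genes rose and 10.6% fell. Cd24a, a surface sialoglycoprotein, read 6.99 and 22.1 in the CCl4 pools and 3.25 and 4.00 in the oil pools (1.56 ± 0.32). The duct keratin Krt19 read 2.30 and 8.99 in the CCl4 pools, against 1.32 and 1.59 in the oil pools, and did not pass. Epcam read 2.69 and 18.8 in the CCl4 pools and 2.22 and 2.48 in the oil pools, and did not pass either. Without the CCl4 pool of 12 weeks 12 genes of the list rose, and without that of 24 weeks 0. Among 16 keratins and epithelial cytoskeleton genes 2 rose, the thymosins Tmsb10 and Tmsb4x, and 10 rose without the CCl4 pool of 12 weeks. Of 18 annexins and S100 proteins 5 rose, with Anxa2 at 43.3 and 131 in the CCl4 pools and 17.2 and 23.1 in the oil pools (1.87 ± 0.27, adjusted p = 0.00866). S100a11 read 8.91 and 23.7 in the CCl4 pools, against 3.59 and 4.15 in the oil pools (1.69 ± 0.26). Without either oil pool 0 genes of these 3 lists passed.

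Oncofetal and liver tumour genes rose in 5 of 20, with 0 lower. The imprinted noncoding RNA H19, silenced after birth, read 139 and 18.0 in the CCl4 pools and 2.09 and 0.334 in the oil pools (4.67 ± 0.91, adjusted p = 0.0240). Its neighbour Igf2 read 6.14 and 1.92 in the CCl4 pools, against 0.598 and 0.853 in the oil pools, without passing. Both were higher in the CCl4 pool of 12 weeks than in that of 24 weeks, the reverse of the duct genes. Rad51b, a recombination gene, read 21.5 and 28.6 in the CCl4 pools and 4.74 and 3.41 in the oil pools (2.36 ± 0.31, adjusted p = 0.00583). Alpha-fetoprotein (Afp) did not pass, with 11.4 and 3.48 in the CCl4 pools and 3.20 and 2.82 in the oil pools (0.90 ± 0.38, adjusted p = 0.185). The glypican Gpc3, a clinical tumour marker, did not pass either, with 8.76 and 5.23 in the CCl4 pools and 2.48 and 3.52 in the oil pools (0.97 ± 0.26, adjusted p = 0.0572). The other calls were Ly6d, Scd2 and Cd44. Ly6d alone passed without the oil pool of 24 weeks, and 3 passed without that of 12 weeks.

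Cell cycle genes rose in 5 of 33, at low levels. In 26 of the 33 both CCl4 pools lay above both oil pools, and 27 rose on normal diet, where 15.3% of all tested genes did. Mki67, the proliferation antigen, read 5.38 and 9.91 in the CCl4 pools and 2.82 and 1.93 in the oil pools (1.32 ± 0.31, adjusted p = 0.0414, and 0.0503 in edgeR). Top2a, which untangles chromosomes in mitosis, read 3.65 and 8.62 in the CCl4 pools, against 1.71 and 1.56 in the oil pools (1.35 ± 0.29). Rrm2, which makes deoxynucleotides, read 12.2 and 12.5 in the CCl4 pools and 6.15 and 5.93 in the oil pools (0.92 ± 0.16). Kif11 and Ube2c were the others. Of 19 p53 targets 3 rose and 1 fell. Cdkn1a, the p21 inhibitor, read 76.9 and 68.8 in the CCl4 pools and 26 and 29.4 in the oil pools (1.36 ± 0.31, adjusted p = 0.0370), and Phlda3 read 12.4 and 9.54 in the CCl4 pools, against 4.44 and 3.41 in the oil pools. The third was Btg2, and the 1 that fell was Trp53inp1. Of 22 genes of the endoplasmic reticulum and integrated stress responses 1 rose, Atf3, and 1 fell, Atf4. Over all tested genes 4.29% rose and 2.52% fell, so these counts say little about the list. Atf4 read 55.3 and 62.9 in the CCl4 pools and 97.5 and 104 in the oil pools (-0.76 ± 0.14). The chaperone Hspa5 did not pass, with 853 and 707 in the CCl4 pools and 1210 and 1455 in the oil pools. Without the oil pool of 12 weeks 1 cell cycle gene passed, and without that of 24 weeks or the CCl4 pool of 24 weeks 0, and without either oil pool 0 of the p53 and stress genes passed.

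**Figure D3:**
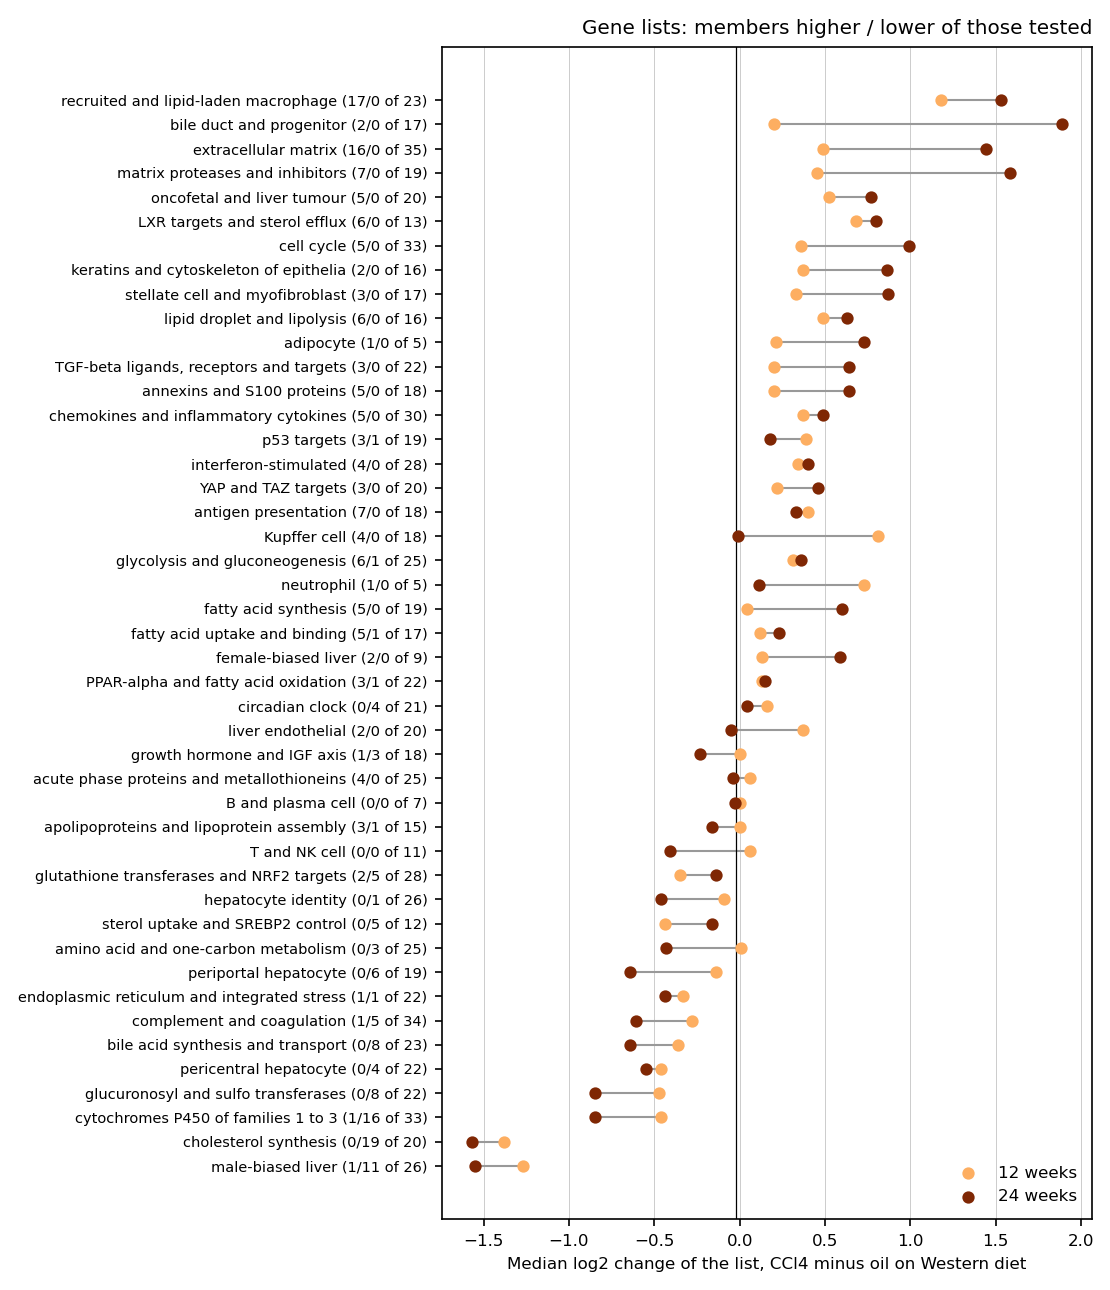
Median log2 change (CCl4 minus oil on Western diet) of each list with at least 5 tested members at 12 weeks (light) and 24 weeks (dark), with the members higher and lower of those tested in brackets. The vertical line is the median of all tested genes, -0.02; recruited macrophage markers lie to its right at both durations, bile duct markers mostly at 24 weeks, and cholesterol synthesis and male-biased genes lie farthest left.

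The differences were wider at 24 than at 12 weeks, as a description of single pools. At 12 weeks 304 genes were at least 2-fold higher and 103 lower, and at 24 weeks 771 were higher and 210 lower. At both durations 165 were higher, 71 lower, and 2 went in opposite directions. Of the 862 called genes 605 had the larger difference at 24 weeks and 257 at 12 weeks. The test of the difference between durations had 1 residual degree of freedom and called 0 genes in limma, with 466 at an unadjusted p under 0.05, 0 in edgeR and 2 in DESeq2. A change in size between durations was therefore not detectable for named genes by limma. The median over all tested genes was -0.01 at 12 weeks and -0.03 at 24 weeks.

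**Figure D4:**
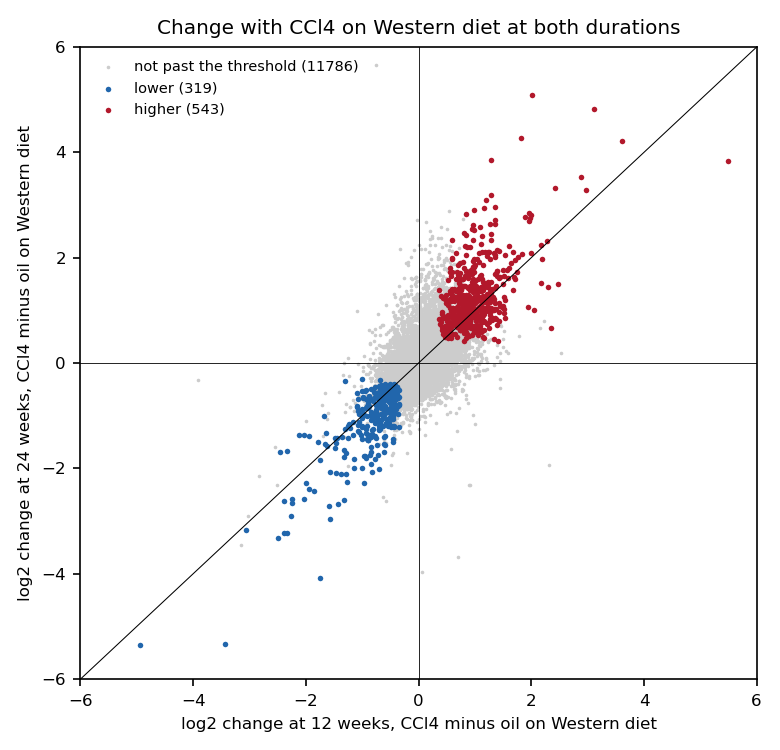
Log2 difference between CCl4 and oil on Western diet at 12 weeks (x axis) and at 24 weeks (y axis) for all 12648 tested genes, 1 point a gene. Of the called genes, 543 higher (red) and 319 lower (blue), 605 have the larger difference at 24 weeks; the diagonal marks equal differences.

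CCl4 on normal diet was set beside CCl4 on Western diet to ask where the effects differ. The 2 comparisons share no pool, but both use the same fit and the same estimate of spread for each gene. Their calls are therefore not independent. On normal diet 15.3% of the tested genes were higher and 10.6% lower, 3285 in all. Of the 862 genes called on Western diet 744 were called in the same direction on normal diet, which is 86.3% of the Western-diet calls and 22.6% of the normal-diet calls, and 0 in the opposite direction. The absolute change was larger on normal diet in 561 of the 862. A further 118 were called on Western diet and not on normal diet, but the test of the difference called 1 of these, Scara5. In all, the difference between diets was called for 13 genes, or 0.103% of those tested, with 1131 at an unadjusted p under 0.05. It was called for 0 genes without the oil pool of 12 weeks and 0 without that of 24 weeks, and for 79 without the CCl4 pool of 24 weeks.

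Scara5, a scavenger receptor that takes up ferritin and is made by fibroblasts, was the gene that rose on Western diet alone. It read 14.1 and 22.3 with CCl4 and 2.31 and 4.93 with oil on Western diet (2.09 ± 0.16, adjusted p = 0.000477). On normal diet it read 7.20 and 14.8 with CCl4 and 10.2 and 20.9 with oil (-0.46 ± 0.16, adjusted p = 0.0621). The low values were thus those of Western diet with oil, and the difference between diets was 2.54 (adjusted p = 0.00612). Sqle fell on both diets, by 2.45 on Western and by 4.12 on normal diet, with 8.11 and 6.86 with CCl4 and 142 and 151 with oil on the normal diet. Enho, which encodes the hormone adropin, read 1.65 and 1.32 with CCl4 and 5.13 and 4.49 with oil on Western diet, against 1.51 and 2.32 with CCl4 and 28.4 and 29.6 with oil on normal diet. In Enho the CCl4 pools were alike on both diets and the oil pools were not.

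Cidea, a droplet protein of brown fat and fatty liver, read 0.154 and 0.919 with CCl4 and 0 and 0 with oil on Western diet, where 3 reads are worth 0.0862 to 0.128. On normal diet it read 16.4 and 34.4 with CCl4 and 0 and 0.0915 with oil. On Western diet Cidea did not pass in limma (adjusted p = 0.249), where the added 1 understates changes at such levels, but it was called higher by edgeR (adjusted p = 0.0209) and DESeq2 (adjusted p = 0.00211). Cyp2a22 and Gstm3 rose on normal diet, by 2.99 and 1.73 in log2, and did not pass on Western diet, at 0.24 and -0.27. Tff3, a mucosal trefoil peptide, read 1.54 and 1.98 with CCl4 and 0.855 and 1.19 with oil on Western diet, against 1.67 and 1.16 with CCl4 and 22.3 and 36.3 with oil on normal diet. Moxd1 was 0 in all 4 Western-diet pools, so its called difference rests on the normal diet, where it read 0 and 0 with CCl4 and 14.4 and 30.4 with oil. Srgap3 showed the same layout as Tff3 at low counts. Pitx3, also at low counts, fell on both diets, with a log2 change of -0.82 on Western diet (limma, adjusted p = 0.0451) and -3.16 on normal diet. It read 0.23 and 0 with CCl4 and 1.07 and 0.853 with oil on Western diet. Apoa4 and the sulfatase Sulf2 rose on both diets and by more on normal diet, Apoa4 by 5.32 there.

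**Figure D5:**
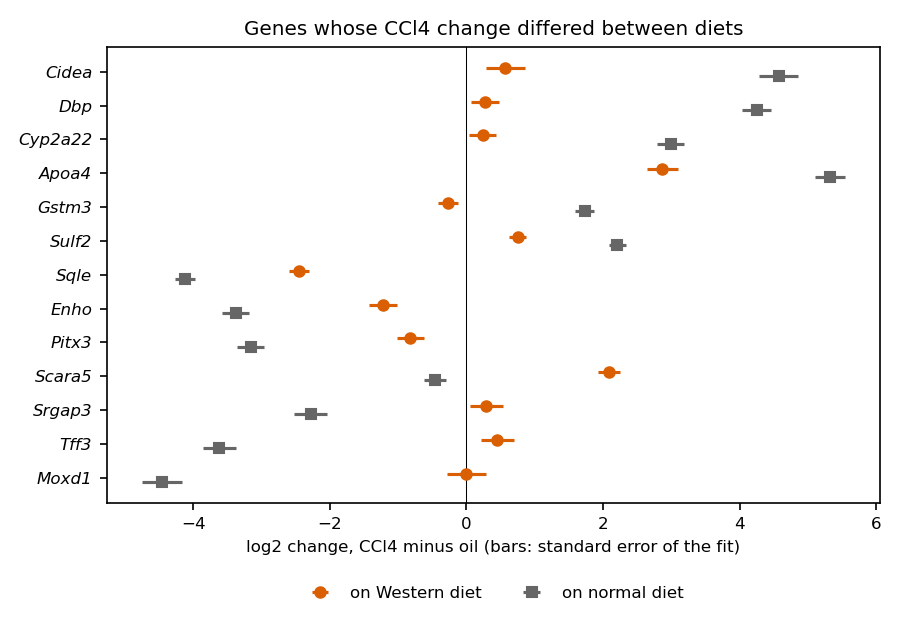
Log2 change with CCl4 (CCl4 minus oil) on Western diet (orange circles) and on normal diet (grey squares) for the 13 genes whose change differed between diets, with standard errors of the fit, 2 pools against 2. Genes from Cidea to Sulf2 lie higher on normal diet, and those from Sqle to Moxd1 lie lower there.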

How the data were processed

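Per the labels, an RNeasy kit served for extraction from frozen liver, and 200 ng of total RNA went into poly-A TruSeq libraries. The submitters' processing notes name STAR and mm10. No source used here gives the read counter, annotation or scaling. The deposited values are a normalised signal per gene for 24062 genes in 10 libraries, and after division by 1 factor per library the authors' values (100% of them) came out whole to within 0.01 reads. Recovered totals and the value of 3 reads cover counting error only. The labels name no batch.

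Values were taken as log2(value + 1), so changes of low genes are understated. limma 3.58.1 in R 4.3.3 (eBayes with trend, two-sided) fitted the 8 liver pools with a mean for each of the 4 groups plus a week term, leaving 3 residual degrees of freedom, and the Benjamini-Hochberg adjustment ran over 12648 genes, with a threshold of 0.05. Errors are standard errors of the fit. The labels do not say that pools of 1 group were repeats. After the week term, the spread between them still holds any effect of duration that differs between groups. The difference between diets came from the same fit. Alternatives included edgeR 4.0.16 and DESeq2 1.42.0 run on those whole reads, and the fits were tested on simulated data.

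The comparison, the 48 gene lists and the named genes were chosen with earlier results of these data known. Of 1023 list entries 1011 matched by symbol, 5 by an older symbol (Emr1 stands for Adgre1) and 7 did not match. Named genes were the 10 largest rises and falls at or above the median level, for each list its largest called members (at most 4) or 2 that missed the threshold, the largest rises and falls for the difference between diets, and 16 followed genes, some of which are not reported here. Cell type markers were set with the lists. Other list members, and the remaining called genes of the difference, were chosen after their values were seen. Promoter windows and positions come from RefSeq for GRCm38.p6, the assembly of mm10.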

Additional observations from a re-analysis of the deposited data

Results flagged for a closer look

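Among the named genes, 5 had a CCl4 change that differed between the Western and the normal diet by the test of the difference (limma, adjusted over 12648 genes). The difference, Western minus normal diet, was -3.99 for Dbp (adjusted p = 0.00471), which was at 62.4 and 50.1 with CCl4 and 55.9 and 38.4 with oil on Western diet, and at 63.6 and 42.2 with CCl4 and 1.46 and 2.10 with oil on normal diet. Of the 8 liver pools, those of oil on normal diet were low in Dbp. The difference was -2 for Gstm3 (adjusted p = 0.0078), which read 290 and 407 with CCl4 and 406 and 421 with oil on Western diet, and 455 and 501 with CCl4 and 126 and 164 with oil on normal diet. For Apoa4 it was -2.45 (adjusted p = 0.0320), for Sulf2 -1.46 (adjusted p = 0.0265) and for Sqle 1.67 (adjusted p = 0.0320). In these 3 genes the CCl4 change had the same sign on both diets and was the larger on normal diet.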

How the results depend on the processing

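The count of 862 was 302 without the filter on low values, 470 with quantile normalization, 203 without the duration term, 1312 with array weights, 6 with all 10 libraries and 1319 with DESeq2. With 1 pool left out it ran from 29 to 891. The 3285 genes on normal diet were 437 with all 10 libraries, and ran from 1021 to 3659 with 1 pool left out. The 13 genes that differed between diets were 8 without the filter, 6 with the stricter filter, 8 with quantile normalization, 7 without the trend, 0 with all 10 libraries (limma) and 132 with DESeq2, and ran from 0 to 79 with 1 pool left out; edgeR called 9. The 0 genes that differed between durations were 2 with DESeq2. For named genes on Western diet, 3365 values were recomputed, and 730 lost the threshold, 9 gained it and 0 passed it with the opposite sign. Signs did change below the threshold. The adipocyte gene Adrb3, which did not pass, was at -0.25 in the main fit and at 0.13 without the CCl4 pool of the longer duration. The causes were not tested. A pool left out leaves a lone pool, assumed to vary like the others. The duration term pairs the pools by week, and the pools carry no other pairing.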
